A study of Homo sapiens with 8 samples.

Results

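The gene set described here holds 36 genes of glycolysis and of the hypoxia response, taken as a list of symbols and matched to Ensembl gene identifiers through the deposited gene names. All 36 were found among the 63677 gene identifiers of the count tables. TPI1, PGK1 and ENO2 had 2 identifiers each, and the one with most reads was used. The members were grouped by role as 4 glucose and lactate transporters, 9 enzymes of upper glycolysis, 8 enzymes of lower glycolysis, 5 regulators of flux and 10 other hypoxia-inducible genes. They were followed in DND-41 and MOLT-4, human lines established from T-cell acute lymphoblastic leukaemia and grown in RPMI-1640 medium with 10% FBS. Each line received either 100 nM ACBI-1 or the solvent DMSO for 8 h, which gave 4 groups of 2 strand-specific total-RNA libraries. ACBI-1 is a bifunctional degrader that brings the bromodomain proteins SMARCA2, SMARCA4 and PBRM1, subunits of the BAF and PBAF chromatin remodellers, to the VHL ubiquitin ligase. The labels do not say whether the 2 libraries of a group came from separate cultures, so a p-value here reflects the spread of the libraries alone. No low-oxygen group is among the labels.

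Glycolysis turns glucose into pyruvate in the cytosol, and lactate dehydrogenase then turns pyruvate into lactate, which leaves the cell through monocarboxylate transporters. Many of these genes are direct targets of the hypoxia-inducible factors (HIF), made of an oxygen-labile alpha subunit and ARNT, and many are also MYC targets. Proliferating T cells and leukaemic T cells are known for a high rate of glycolysis also where oxygen is present. VHL, the ligase receptor that ACBI-1 recruits, is also the receptor that marks HIF alpha subunits for degradation when oxygen is present.

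HIF binds DNA at the core ACGTG or GCGTG, and MYC with MAX binds the E-box CACGTG, which contains an ACGTG core. Promoter windows of 300 bases, from 250 before to 50 after the transcription start, were available from RefSeq (GRCh38.p14) for 30 of the 36 members, with 57 windows in all. A core ACGTG or GCGTG on either strand was present in 40 of the 57 windows (70.2%), against 48.4% of all 35116 windows of the same length. CACGTG was present in 9 of the 57 (15.8%), against 7.26% of all windows. A match describes these letters only and is no measured binding site, and the difference in base composition between the sets was not tested. The windows below belong to members that changed by at least 0.5 on the log2 scale in the same direction in both lines and have a single window, and to both members that changed in opposite directions (HK2 and PDK1). Capitals mark each core ACGTG or GCGTG, written as CACGT or CACGC where it lies on the other strand. Each sequence reads 5′ to 3′ on the strand of the gene.
ENO2, chr12:6914330-6914629, plus strand: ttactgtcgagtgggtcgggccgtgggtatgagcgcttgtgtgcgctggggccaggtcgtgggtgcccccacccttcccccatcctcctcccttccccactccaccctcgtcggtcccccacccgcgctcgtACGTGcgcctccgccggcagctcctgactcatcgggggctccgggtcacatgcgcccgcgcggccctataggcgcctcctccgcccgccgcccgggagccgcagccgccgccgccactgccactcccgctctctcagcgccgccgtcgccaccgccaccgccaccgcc
PFKFB4, chr3:48556754-48557053, minus strand: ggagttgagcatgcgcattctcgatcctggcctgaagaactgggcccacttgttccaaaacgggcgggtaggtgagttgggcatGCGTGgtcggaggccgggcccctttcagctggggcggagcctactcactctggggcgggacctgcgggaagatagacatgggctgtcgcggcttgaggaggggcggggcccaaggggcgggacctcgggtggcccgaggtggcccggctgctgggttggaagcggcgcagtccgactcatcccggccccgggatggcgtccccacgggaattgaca
BHLHE40, chr3:4979187-4979486, plus strand: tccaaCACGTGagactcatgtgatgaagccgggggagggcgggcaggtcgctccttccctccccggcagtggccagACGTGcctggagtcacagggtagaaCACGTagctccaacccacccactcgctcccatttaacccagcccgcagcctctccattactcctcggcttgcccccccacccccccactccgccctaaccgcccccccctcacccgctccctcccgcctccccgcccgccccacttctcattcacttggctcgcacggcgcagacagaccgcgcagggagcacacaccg
HK2, chr2:74833877-74834176, plus strand: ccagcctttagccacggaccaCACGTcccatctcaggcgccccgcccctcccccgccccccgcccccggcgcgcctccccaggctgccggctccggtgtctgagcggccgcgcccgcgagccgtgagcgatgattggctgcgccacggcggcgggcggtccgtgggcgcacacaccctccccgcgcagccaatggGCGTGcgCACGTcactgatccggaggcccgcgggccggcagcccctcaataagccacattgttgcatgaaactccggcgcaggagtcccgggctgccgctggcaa
HK2, chr2:74834920-74835219, plus strand: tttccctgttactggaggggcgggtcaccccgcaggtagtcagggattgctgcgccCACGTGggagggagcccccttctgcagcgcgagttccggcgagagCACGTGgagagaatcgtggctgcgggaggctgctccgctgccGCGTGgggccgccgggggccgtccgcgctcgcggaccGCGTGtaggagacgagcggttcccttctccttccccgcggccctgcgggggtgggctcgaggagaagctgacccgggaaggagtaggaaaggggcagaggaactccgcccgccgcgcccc
PDK1, chr2:172555123-172555422, plus strand: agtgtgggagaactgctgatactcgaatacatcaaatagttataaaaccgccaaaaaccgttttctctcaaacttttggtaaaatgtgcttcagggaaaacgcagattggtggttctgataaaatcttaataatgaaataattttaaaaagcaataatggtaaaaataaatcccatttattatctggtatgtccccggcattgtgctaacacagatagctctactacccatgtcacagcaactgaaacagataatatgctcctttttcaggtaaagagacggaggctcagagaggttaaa
PDK1, chr2:172555840-172556139, plus strand: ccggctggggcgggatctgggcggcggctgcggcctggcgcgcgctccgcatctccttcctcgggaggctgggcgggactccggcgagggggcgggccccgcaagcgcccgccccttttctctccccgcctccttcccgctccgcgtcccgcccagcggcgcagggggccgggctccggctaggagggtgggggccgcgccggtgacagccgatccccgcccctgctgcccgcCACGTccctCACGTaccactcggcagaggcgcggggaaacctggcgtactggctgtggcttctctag
The downstream HK2 window holds 6 core matches, 4 of them from 2 copies of the palindrome CACGTG. BHLHE40 holds 4, with 1 copy of CACGTG. ENO2 and PFKFB4 hold 1 each, and the upstream PDK1 window holds 0.

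The 8 libraries held between 19860759 and 20239888 counts. All 8 T-cell markers had counts in every group, TLX3 was high only in DND-41 and TAL1 only in MOLT-4, and erythroid genes had 0 counts. The markers were not constant under ACBI-1: 5 of the 8 T-cell markers (CD2, CD5, CD7, LCK and CD247) fell in each line, beside 23.2% and 24.4% of all genes. The CD5 call in DND-41 was lost without DMSO replicate 1. CD3G rose in both lines, and CD3D and CD3E rose in DND-41. The sum of the 8 in DND-41 was 4596 and 4678 CPM with DMSO and 4933 and 5242 CPM with ACBI-1. In MOLT-4 it was 2730 and 2886 CPM with DMSO and 2555 and 2580 CPM with ACBI-1. CD79A, a B-cell receptor component, read 1568 and 1586 CPM with DMSO and 935 and 979 CPM with ACBI-1 in DND-41, and fell in both lines (-0.71 ± 0.06 and -0.74 ± 0.16). The part of these markers in the members' values was not tested. Genes of stromal or epithelial cells stood apart in the MOLT-4 libraries: their sum over 5 genes was 67.4 CPM in DMSO replicate 2, 13.9 in ACBI-1 replicate 2, 2.41 in DMSO replicate 1 and 0 in ACBI-1 replicate 1, against 0 to 0.0966 in DND-41. Most of the sum in either replicate 2 library was COL1A1 (55.4 CPM with DMSO and 11.4 CPM with ACBI-1), while EPCAM and PECAM1 had 0 counts. The main counts of members in MOLT-4 are also given without both replicate 2 libraries. SMARCA4 RNA, which does not show the level of a protein that is degraded, was higher with ACBI-1 in DND-41 (0.34 ± 0.06 (SE), adjusted p = 0.000284) and in MOLT-4 (0.19 ± 0.06 (SE), adjusted p = 0.0187). SMARCA2 fell in DND-41 (-0.19 ± 0.07 (SE), adjusted p = 0.0433) and PBRM1 in MOLT-4 (-0.16 ± 0.06 (SE), adjusted p = 0.0288), and neither passed in the other line. Without MOLT-4 ACBI-1 replicate 2, 0 of these 3 targets passed in MOLT-4. The SMARCA4 call there was also lost without ACBI-1 replicate 1, the PBRM1 call without DMSO replicate 2, and the SMARCA2 call in DND-41 without ACBI-1 replicate 1 or DMSO replicate 2. Levels below are CPM (counts scaled to a common library size) with TMM factors. Each fold change is a log2 ratio of ACBI-1 over DMSO with its standard error (SE), tested by edgeR's quasi-likelihood test with Benjamini-Hochberg adjustment over all genes tested, and a gene passed at an adjusted p below 0.05. In bulk RNA, fewer cells of a kind and less RNA per cell cannot be told apart. Groups that do not overlap are a description only, and their share over all genes is not given. An exact permutation test of 2 libraries against 2 cannot go below p = 0.333.

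Of the 36 members, 34 had enough counts to be tested, and more fell than rose with ACBI-1 in each line. In DND-41, 20 of the 34 fell (58.8%) and 1 rose (2.94%), while 13 did not pass. Over all genes tested in this line, 23.2% fell and 20% rose. The median log2 fold change of the 34 was -0.23, beside 0.01 over all genes. In MOLT-4, 16 fell (47.1%), 7 rose (20.6%) and 11 did not pass, where 24.4% of all genes fell and 20.7% rose. The risen share in MOLT-4 was thus near that of all genes. The median was -0.12, beside 0.00 over all genes. Counting only changes of at least 0.5 on the log2 scale, 11 members fell and 1 rose in DND-41 (13.5% and 6.86% of all genes), and 7 fell and 2 rose in MOLT-4 (14.9% and 7.02%). Scaling by library size alone gave 4 risen and 16 fallen members in MOLT-4, beside 12.5% and 27.5% of all genes. The fit that omitted both MOLT-4 replicate 2 libraries gave 3 and 11, beside 8.5% and 14% of all genes. In DND-41, leaving out DMSO replicate 2 left 13 fallen members, beside 17.5% of all genes.

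Both lines shared much of the direction. Among the 34, 14 (41.2%) fell in both lines, where 15.6% of the 12859 genes tested in both lines did so: SLC2A3, SLC16A3, HK1, PFKL, PFKM, PFKP, ALDOA, TPI1, GAPDH, ENO2, LDHA, PFKFB3, VEGFA and BHLHE40. Without both MOLT-4 replicate 2 libraries 10 of these 14 remained, and PFKP, ALDOA, GAPDH and VEGFA did not. Leaving out 1 library at a time gave 10 to 15 members fallen in both. Only PFKFB4 rose in both, where 12% of all genes rose in both. HK2 and PDK1 fell in DND-41 and rose in MOLT-4, a pattern held by 0.918% of all genes. In a DESeq2 fit neither gene passed in DND-41 (adjusted p = 0.0661 for HK2 and 0.19 for PDK1). PDK1 did not pass in MOLT-4 either (adjusted p = 0.215). No member rose in DND-41 and fell in MOLT-4, where 0.762% of all genes did. GPI, PGAM1, LDHB, BNIP3, ANKRD37, P4HA1 and KDM3A passed in neither line.

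**Figure D1:**
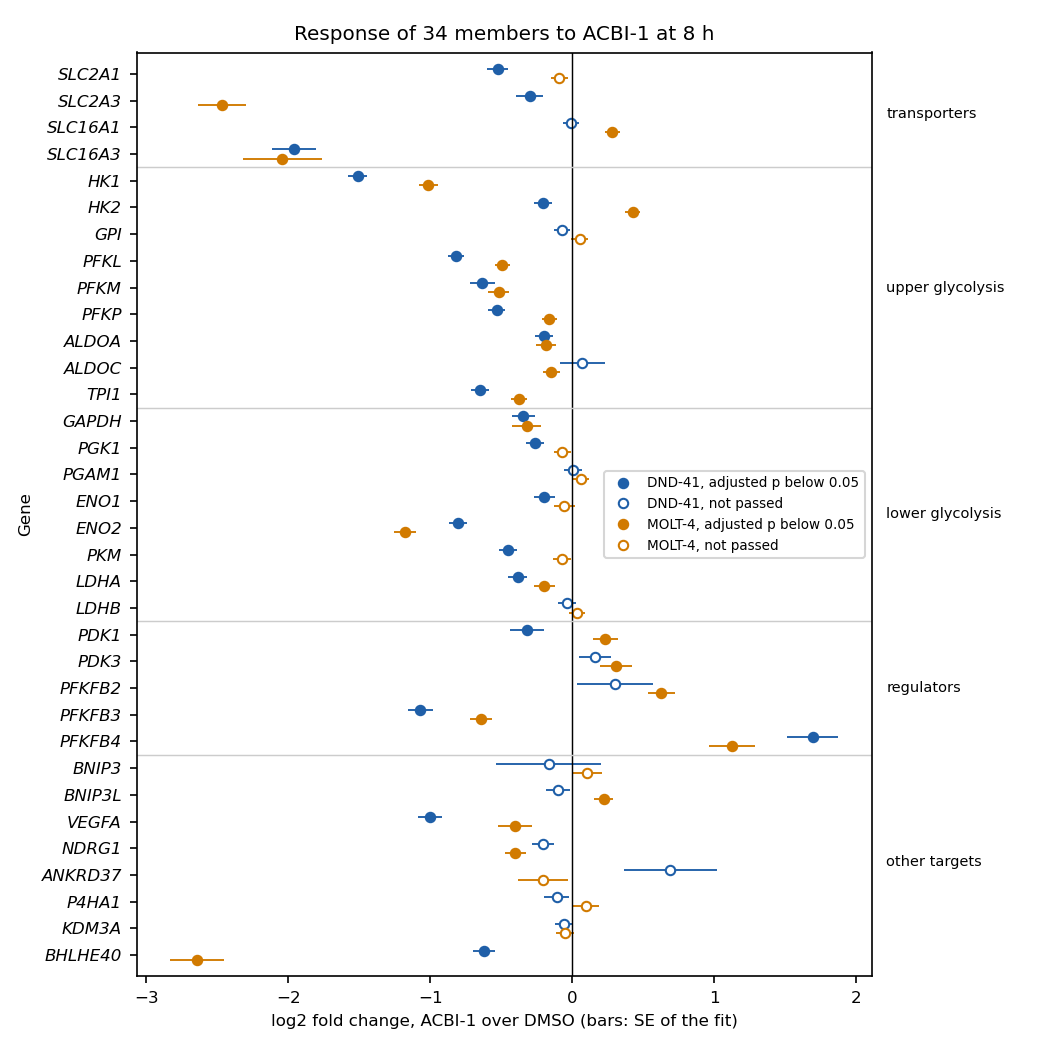
Log2 fold change (ACBI-1 over DMSO) of the 34 tested members, ordered by role, in DND-41 (blue) and MOLT-4 (orange). Bars are the standard error of the fit and filled points passed an adjusted p of 0.05. Most filled points lie left of 0, PFKFB4 lies right of 0 in both lines, and SLC2A3 and BHLHE40 lie far lower in MOLT-4 than in DND-41.

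The glucose transporters SLC2A1 (GLUT1) and SLC2A3 (GLUT3) bring glucose into the cell, and each fell mainly in a different line. SLC2A1 read 61.01 and 67.6 CPM with DMSO and 42.2 and 46.3 CPM with ACBI-1 in DND-41, and 63.5 and 63.8 CPM with DMSO and 60.3 and 59.7 CPM with ACBI-1 in MOLT-4. Both treated libraries lay below both controls in each line. The gene fell in DND-41 (-0.53 ± 0.07 (SE), adjusted p = 4.58e-05), while MOLT-4 gave -0.09 ± 0.06 (SE), adjusted p = 0.26. SLC2A3 read 10.03 and 9.99 CPM with DMSO and 2.01 and 1.60 CPM with ACBI-1 in MOLT-4, and both treated libraries lay far below the controls. The gene fell there (-2.47 ± 0.17 (SE), adjusted p = 5.14e-10). In DND-41 the same gene read 16.9 and 17.3 CPM with DMSO and 14.3 and 13.3 CPM with ACBI-1. The groups again did not overlap, but the fall was small (-0.30 ± 0.10 (SE), adjusted p = 0.0209) and was lost without ACBI-1 replicate 2, without DMSO replicate 1 or without DMSO replicate 2 (adjusted p 0.0640 to 0.115). 

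SLC16A3 (MCT4), the lactate exporter of highly glycolytic cells, was the transporter with the most even response. It read 12.1 and 10.5 CPM with DMSO and 2.73 and 3.02 CPM with ACBI-1 in DND-41 and 3.36 and 3.33 CPM with DMSO and 0.794 and 0.826 CPM with ACBI-1 in MOLT-4. The groups were far apart in both lines, with a fold change of -1.96 ± 0.15 (SE), adjusted p = 1.27e-07 in DND-41 and -2.04 ± 0.28 (SE), adjusted p = 6.11e-06 in MOLT-4. SLC16A1 (MCT1), which carries lactate in either direction, did not follow it. SLC16A1 read 114 and 112 CPM with DMSO and 110.4 and 112 CPM with ACBI-1 in DND-41, where the groups overlapped (-0.01 ± 0.06 (SE), adjusted p = 0.921). In MOLT-4 it read 113 and 106 CPM with DMSO and 130.2 and 136 CPM with ACBI-1. Both treated libraries were above both controls and the gene rose (0.28 ± 0.05 (SE), adjusted p = 0.000243), a call not met without both replicate 2 libraries (0.20, adjusted p = 0.118).

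**Figure D2:**
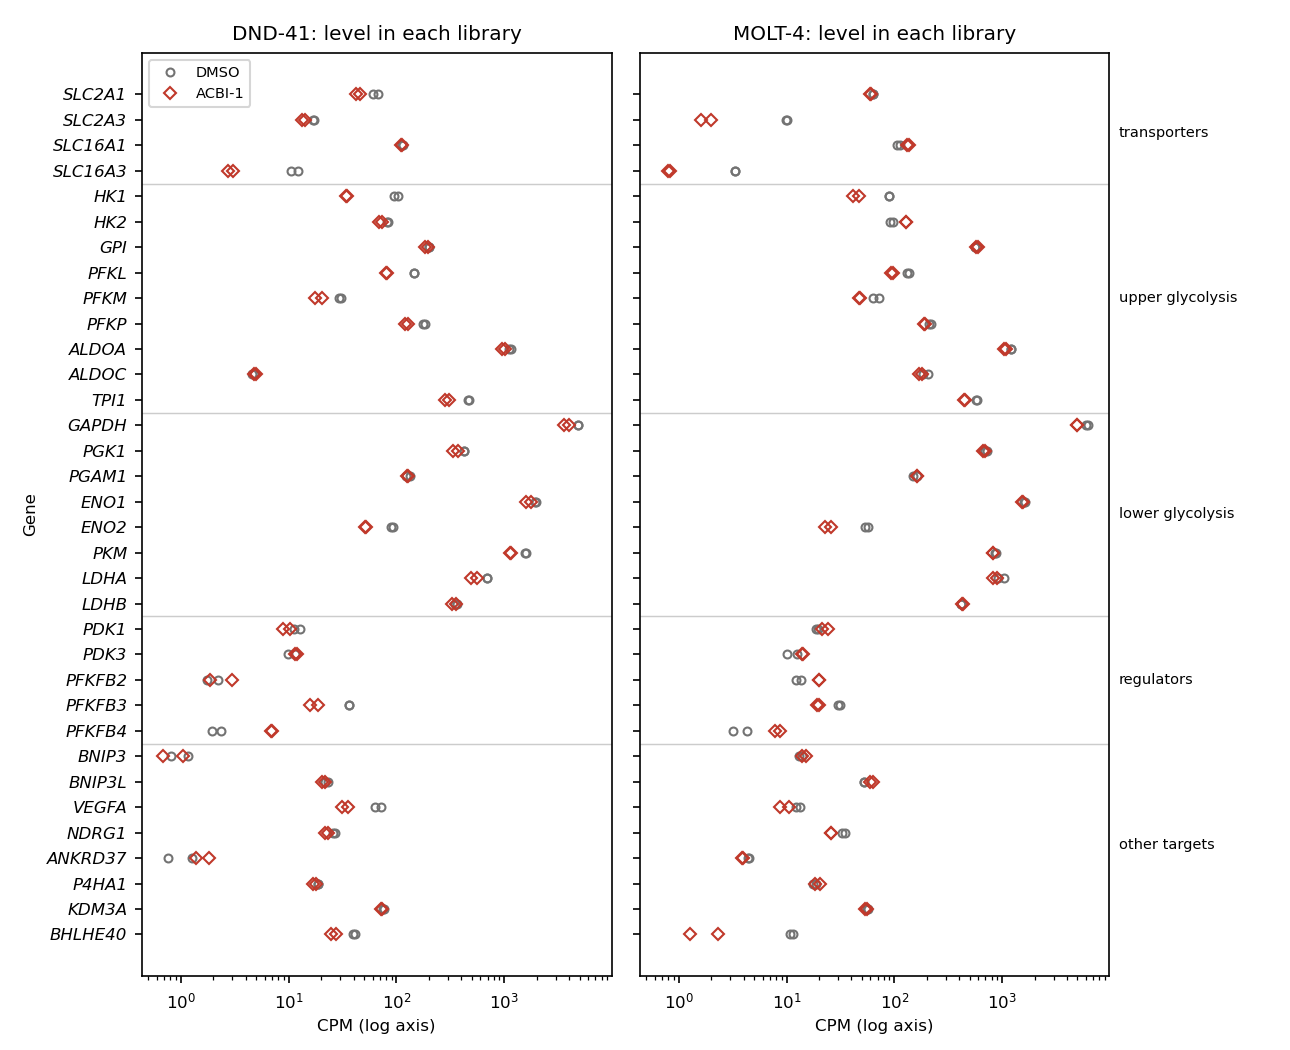
Level of the 34 tested members in each library as CPM on a log axis, DND-41 on the left and MOLT-4 on the right, with DMSO as grey circles and ACBI-1 as red diamonds. GAPDH and ENO1 are the highest in every library, and the treated libraries of SLC16A3, HK1, ENO2 and PFKFB3 lie left of the controls in both lines.

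In upper glycolysis, 7 of 9 enzymes fell in each line, beside 23.2% and 24.4% of all genes, and HK2 rose in MOLT-4. The 7 in MOLT-4 became 4 without ACBI-1 replicate 2, and also without both replicate 2 libraries. Hexokinase commits glucose to the cell by phosphorylating it, and HK1 and HK2 are its main forms outside the liver. HK1 read 94.6 and 103 CPM with DMSO and 34.5 and 34.04 CPM with ACBI-1 in DND-41 and 88.9 and 89.04 CPM with DMSO and 47.3 and 41.02 CPM with ACBI-1 in MOLT-4. All 4 treated libraries were well below all 4 controls, and the gene fell in DND-41 (-1.51 ± 0.07 (SE), adjusted p = 5.22e-10) and in MOLT-4 (-1.01 ± 0.07 (SE), adjusted p = 4.35e-10). HK2 read 81.2 and 83.97 CPM with DMSO and 68.3 and 73.5 CPM with ACBI-1 in DND-41 and 92.1 and 97.7 CPM with DMSO and 127 and 128 CPM with ACBI-1 in MOLT-4. The groups were separate in both lines but in opposite order: HK2 rose in MOLT-4 (0.43 ± 0.05 (SE), adjusted p = 2.15e-06) and fell slightly in DND-41 (-0.21 ± 0.06 (SE), adjusted p = 0.0184). The DND-41 call was lost without DMSO replicate 1 (-0.24, adjusted p = 0.0726), without DMSO replicate 2 (-0.18, adjusted p = 0.186), and a DESeq2 fit gave -0.21 (adjusted p = 0.0661). The call in MOLT-4 held under every alternative at the same threshold.

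Phosphofructokinase catalyses the committing step of glycolysis as a tetramer of liver (PFKL), muscle (PFKM) and platelet (PFKP) type subunits. PFKL read 145 and 144 CPM with DMSO and 82.4 and 79.8 CPM with ACBI-1 in DND-41 and 132 and 137 CPM with DMSO and 98.02 and 93.5 CPM with ACBI-1 in MOLT-4. PFKM read 30.4 and 29.2 CPM with DMSO and 17.7 and 20.4 CPM with ACBI-1 in DND-41 and 62.9 and 72.5 CPM with DMSO and 47.00 and 47.96 CPM with ACBI-1 in MOLT-4. PFKP read 182 and 178 CPM with DMSO and 120.1 and 127 CPM with ACBI-1 in DND-41 and 211 and 217 CPM with DMSO and 194 and 189.6 CPM with ACBI-1 in MOLT-4. For each of the 3 subunits, both treated libraries lay below both controls in each line. PFKL fell by 0.82 ± 0.06 in DND-41 (adjusted p = 5.4e-08) and by 0.49 ± 0.05 in MOLT-4 (adjusted p = 3.55e-07), and PFKM by 0.63 ± 0.09 (adjusted p = 4.19e-05) and 0.52 ± 0.07 (adjusted p = 9.21e-06). PFKP fell by 0.53 ± 0.06 in DND-41 (adjusted p = 4.6e-06). Its fall in MOLT-4 was smaller (-0.16 ± 0.05 (SE), adjusted p = 0.0176) and was lost without ACBI-1 replicate 1, ACBI-1 replicate 2 or DMSO replicate 2 (adjusted p 0.0624 to 0.152).

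Aldolase splits the 6-carbon sugar and triosephosphate isomerase (TPI1) interconverts its products. TPI1 read 469.5 and 461 CPM with DMSO and 309.5 and 279 CPM with ACBI-1 in DND-41 and 583 and 574 CPM with DMSO and 455 and 440.3 CPM with ACBI-1 in MOLT-4. The groups were separate and TPI1 fell in both lines, with fold changes of -0.65 ± 0.06 (SE), adjusted p = 1.26e-06 and -0.37 ± 0.06 (SE), adjusted p = 2.44e-05 respectively. ALDOA, the abundant aldolase of most cells, read 1112 and 1159.8 CPM with DMSO and 1012 and 949.8 CPM with ACBI-1 in DND-41 and 1222 and 1207 CPM with DMSO and 1097 and 1043 CPM with ACBI-1 in MOLT-4. Its falls were small (-0.20 ± 0.06 (SE), adjusted p = 0.0236 and -0.19 ± 0.07 (SE), adjusted p = 0.0354). They were lost in DND-41 without either DMSO library (adjusted p 0.128 and 0.308) and in MOLT-4 without either ACBI-1 library (adjusted p 0.0547 and 0.259). ALDOC, the brain-type aldolase, was low in DND-41 and passed only in MOLT-4 (-0.15 ± 0.06 (SE), adjusted p = 0.0469), a call lost without ACBI-1 replicate 2 or DMSO replicate 1 (adjusted p 0.347 and 0.378). GPI, which isomerises glucose 6-phosphate, gave -0.07 ± 0.06 and 0.05 ± 0.06 and passed in neither line.

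In lower glycolysis, 6 of 8 enzymes fell in DND-41 and 3 of 8 in MOLT-4, beside 23.2% and 24.4% of all genes. The former count was 3 without DND-41 DMSO replicate 2, and the latter was 2 without both MOLT-4 replicate 2 libraries. ENO2, the neuron-type enolase that is also a HIF target, moved most. ENO2 read 89.1 and 93.3 CPM with DMSO and 52.5 and 50.8 CPM with ACBI-1 in DND-41 and 56.4 and 53.3 CPM with DMSO and 22.9 and 25.8 CPM with ACBI-1 in MOLT-4. All treated libraries lay well below the controls of their line, and the gene fell in DND-41 (-0.81 ± 0.06 (SE), adjusted p = 1.32e-07) and in MOLT-4 (-1.18 ± 0.08 (SE), adjusted p = 2.93e-10). GAPDH, the dehydrogenase that yields NADH, read 4811 and 4823 CPM with DMSO and 3953 and 3568 CPM with ACBI-1 in DND-41 and 6046 and 6275 CPM with DMSO and 4936 and 4955 CPM with ACBI-1 in MOLT-4. Both treated libraries lay below both controls in each line, with fold changes of -0.34 ± 0.08 (SE), adjusted p = 0.00267 and -0.32 ± 0.10 (SE), adjusted p = 0.015. The GAPDH calls were lost without DND-41 DMSO replicate 2 (adjusted p = 0.0582) and without MOLT-4 ACBI-1 replicate 2 (adjusted p = 0.0597).

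Of the other 6 enzymes of the lower part, 4 fell in DND-41 and 1 in MOLT-4, beside 23.2% and 24.4% of all genes. Among these 6, the difference between the lines passed for PKM alone. PKM, the pyruvate kinase of most tissues, fell in DND-41 (-0.45 ± 0.06 (SE), adjusted p = 4.67e-05) and gave -0.07 ± 0.06 (SE), adjusted p = 0.406 in MOLT-4. PGK1, a kinase that yields ATP, fell in DND-41 (-0.26 ± 0.06 (SE), adjusted p = 0.00365), as did ENO1, the common enolase (-0.20 ± 0.07 (SE), adjusted p = 0.039). The PGK1 call was lost without DMSO replicate 2 (adjusted p = 0.0520), and the ENO1 call without ACBI-1 replicate 2, DMSO replicate 1 or DMSO replicate 2 (adjusted p 0.0543 to 0.280). LDHA, the lactate dehydrogenase subunit that favours lactate, fell in DND-41 (-0.38 ± 0.07 (SE), adjusted p = 0.000299) and in MOLT-4 (-0.20 ± 0.07 (SE), adjusted p = 0.0346). The MOLT-4 call of LDHA was lost without ACBI-1 replicate 1 or DMSO replicate 1 (-0.14 and -0.10, adjusted p = 0.249 and 0.251). LDHB, the other subunit, and PGAM1, the phosphoglycerate mutase, passed in neither line, with log2 fold changes between -0.04 and 0.06. GAPDH, PGK1, LDHA, ALDOA, ENO1, TPI1, PGAM1 and PKM have processed pseudogenes, and the handling of multi-mapped reads is not given in the sources used here, so their levels are uncertain by the reads shared with those copies.

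Over all 17 enzymes from hexokinase to lactate dehydrogenase, 13 fell and 0 rose in DND-41, beside 23.2% and 20% of all genes. In MOLT-4, 10 fell and 1 rose, beside 24.4% and 20.7% of all genes. Without DND-41 DMSO replicate 2 the fallen enzymes numbered 8 in DND-41. Without MOLT-4 ACBI-1 replicate 2 they numbered 6 in MOLT-4, as they did without both replicate 2 libraries. Their summed level in DND-41 was 12321 and 12439 CPM with DMSO and 10171 and 9404 CPM with ACBI-1. In MOLT-4 it was 14024 and 14157 CPM with DMSO and 12253 and 12251 CPM with ACBI-1. Both treated sums were below both control sums in each line, at 79.1% of the DMSO mean in DND-41 and 87.0% in MOLT-4. GAPDH held between 37.9% and 44.3% of each sum. Without GAPDH the treated sums were at 79.7% and 92.1% of the DMSO mean.

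The makeup of several enzyme families also differed between treated and control libraries. Shares were computed per exon length and carry no test, since an exact permutation test of 2 libraries against 2 cannot go below p = 0.333. In DND-41, HK2 made up 46.5% ± 0.844 (SD, n = 2) of hexokinase transcript in the DMSO group and 68.2% ± 1.30 in the ACBI-1 group. In MOLT-4 the share of HK2 was 52.5% ± 1.03 with DMSO and 75.1% ± 1.99 with ACBI-1. HK2 was thus the larger share in both treated groups, although its own level fell in DND-41 and rose in MOLT-4. Of the 2 glucose transporters, SLC2A3 held 10.8% ± 0.0618 in MOLT-4 with DMSO and 2.25% ± 0.341 with ACBI-1, against 16.96% ± 0.783 and 19.3% ± 1.87 in DND-41. Among enolases, ENO2 went from 5.44% ± 0.136 to 3.64% ± 0.175 in DND-41 and from 4.04% ± 0.213 to 1.90% ± 0.191 in MOLT-4. In DND-41, LDHA made up 48.3% ± 1.24 of lactate dehydrogenase transcript in the DMSO group and 42.3% ± 0.386 in the ACBI-1 group, and 53.00% ± 2.13 and 49.1% ± 1.85 in MOLT-4. By counts alone, LDHA held 65.2% and 66.8% with DMSO and 60.7% and 60.2% with ACBI-1 in DND-41. In MOLT-4 it held 71.4% and 68.9% with DMSO and 65.6% and 67.9% with ACBI-1. Which subunit holds the larger share thus depends on the length used. The LDHA share was lower with ACBI-1 by both measures. PFKP stayed the main phosphofructokinase subunit transcript in each group, between 64.6% ± 0.792 in MOLT-4 with DMSO and 69.7% ± 0.0450 with ACBI-1.

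**Figure D3:**
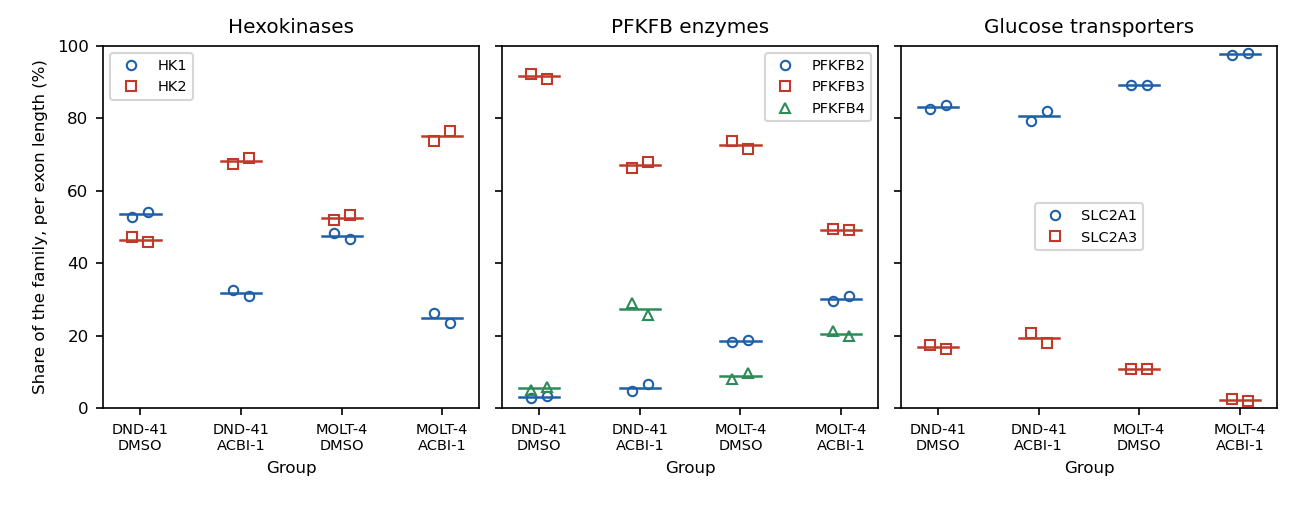
Share of each gene in its family (hexokinases, PFKFB enzymes, glucose transporters) in percent of the family's CPM per exon length, by group. Points are libraries and lines are means of 2. The shares of HK2 and PFKFB4 are higher, and those of HK1 and PFKFB3 lower, in both ACBI-1 groups than in the matching DMSO groups, and SLC2A3 is near 0 in MOLT-4 with ACBI-1.

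Among the regulators, the PFKFB enzymes set the level of fructose 2,6-bisphosphate, an activator of phosphofructokinase, and their members moved in opposite directions. PFKFB3, the form with the strongest kinase activity, read 36.3 and 36.4 CPM with DMSO and 15.7 and 18.5 CPM with ACBI-1 in DND-41 and 29.7 and 31.4 CPM with DMSO and 20.2 and 19.1 CPM with ACBI-1 in MOLT-4. PFKFB4 read 1.95 and 2.37 CPM with DMSO and 6.84 and 6.99 CPM with ACBI-1 in DND-41 and 3.20 and 4.27 CPM with DMSO and 8.63 and 7.76 CPM with ACBI-1 in MOLT-4. No group overlapped: PFKFB3 was lower and PFKFB4 higher in every treated library. PFKFB3 fell in DND-41 (-1.07 ± 0.09 (SE), adjusted p = 1.88e-07) and in MOLT-4 (-0.64 ± 0.08 (SE), adjusted p = 1.63e-06), and PFKFB4 rose in both (1.69 ± 0.18 (SE), adjusted p = 2.81e-06 and 1.124 ± 0.16 (SE), adjusted p = 1.15e-05). These 4 calls held under every alternative at the same threshold. PFKFB2, the heart-type form, read 12.2 and 13.7 CPM with DMSO and 20.1 and 19.99 CPM with ACBI-1 in MOLT-4 and 1.76 and 2.22 CPM with DMSO and 1.87 and 2.97 CPM with ACBI-1 in DND-41. It rose in MOLT-4, where the groups were separate (0.63 ± 0.10 (SE), adjusted p = 2.45e-05), and gave 0.30 ± 0.27 (SE), adjusted p = 0.398 in DND-41, where they overlapped.

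Of the 3 PFKFB genes in DND-41, PFKFB3 held a share per exon length of 91.6% ± 1.13 in the DMSO group and 67.1% ± 1.01 in the ACBI-1 group, and 72.7% ± 1.65 and 49.3% ± 0.132 in MOLT-4. PFKFB4 held 5.43% ± 0.672 and 27.3% ± 2.29 in DND-41, and 8.87% ± 1.27 and 20.6% ± 0.804 in MOLT-4. PFKFB2 held 18.4% ± 0.381 and 30.2% ± 0.937 in MOLT-4 but at most 5.62% ± 1.28 in DND-41. By counts alone, PFKFB2 and PFKFB3 held 41.1% and 41.2% in MOLT-4 ACBI-1 replicate 1. In MOLT-4 ACBI-1 replicate 2 they held 42.7% and 40.8%. Their order in that group thus depends on the length used.

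The pyruvate dehydrogenase kinases PDK1 and PDK3 hold pyruvate back from the mitochondria. PDK1 read 11.2 and 12.9 CPM with DMSO and 8.90 and 10.2 CPM with ACBI-1 in DND-41 and 19.7 and 18.8 CPM with DMSO and 24.2 and 21.1 CPM with ACBI-1 in MOLT-4. The treated libraries lay below the controls in DND-41 and above them in MOLT-4, and the gene fell in the former (-0.32 ± 0.12 (SE), adjusted p = 0.0455) and rose in the latter (0.23 ± 0.09 (SE), adjusted p = 0.0406). The DND-41 call was lost without ACBI-1 replicate 1 or DMSO replicate 2 (-0.23 and -0.22, adjusted p = 0.15 and 0.326). The MOLT-4 call was lost without ACBI-1 replicate 1 or DMSO replicate 2 (0.14 and 0.20, adjusted p = 0.378 and 0.111). Neither passed in a DESeq2 fit (adjusted p = 0.19 and 0.215). PDK3 rose in MOLT-4 (0.31 ± 0.11 (SE), adjusted p = 0.033) and gave 0.16 ± 0.11 (SE), adjusted p = 0.285 in DND-41. The PDK3 call was lost without ACBI-1 replicate 2 or DMSO replicate 2 (0.30 and 0.17, adjusted p = 0.0602 and 0.328).

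Of the 10 other hypoxia-inducible genes, 8 were tested. In DND-41, 2 fell and 0 rose, beside 23.2% and 20% of all genes. The fallen share there (25%) was thus near that of all genes. In MOLT-4, 3 fell and 1 rose, beside 24.4% and 20.7%. BHLHE40 and VEGFA fell in both lines, but VEGFA did not pass in MOLT-4 in a DESeq2 fit (adjusted p = 0.0963). BHLHE40 is a transcriptional repressor induced by hypoxia and by T-cell activation. It read 41.3 and 39.5 CPM with DMSO and 24.7 and 27.2 CPM with ACBI-1 in DND-41 and 10.8 and 11.5 CPM with DMSO and 1.27 and 2.31 CPM with ACBI-1 in MOLT-4. The groups were separate in both lines and the gene fell in DND-41 (-0.62 ± 0.08 (SE), adjusted p = 1.2e-05) and further in MOLT-4 (-2.64 ± 0.19 (SE), adjusted p = 8.66e-10). VEGFA, the angiogenic growth factor, read 62.8 and 71.8 CPM with DMSO and 31.1 and 35.3 CPM with ACBI-1 in DND-41 and 12.3 and 13.2 CPM with DMSO and 10.6 and 8.75 CPM with ACBI-1 in MOLT-4. It fell in DND-41 (-1.003 ± 0.08 (SE), adjusted p = 1.93e-07) and, by less, in MOLT-4 (-0.40 ± 0.12 (SE), adjusted p = 0.00956), where the call was lost without ACBI-1 replicate 2 or DMSO replicate 2 (-0.26 and -0.34, adjusted p = 0.124 and 0.0504).

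The remaining hypoxia-inducible members gave smaller responses or did not pass. NDRG1, a stress-responsive gene, fell in MOLT-4 (-0.40 ± 0.07 (SE), adjusted p = 0.000175) and gave -0.21 ± 0.08 (SE), adjusted p = 0.0524 in DND-41, where it passed without ACBI-1 replicate 1 (-0.26, adjusted p = 0.0161). BNIP3L, a receptor for the removal of mitochondria, rose in MOLT-4 (0.22 ± 0.07 (SE), adjusted p = 0.00911), a call lost without ACBI-1 replicate 1 (0.19, adjusted p = 0.109). Its paralog BNIP3 gave -0.17 ± 0.37 (SE), adjusted p = 0.753 in DND-41, at about 1 CPM, and 0.11 ± 0.10 (SE), adjusted p = 0.429 in MOLT-4. KDM3A, a histone demethylase that is a HIF target, read 75.7 and 76.9 CPM with DMSO and 72.3 and 72.9 CPM with ACBI-1 in DND-41 and 56.3 and 56.7 CPM with DMSO and 53.4 and 55.99 CPM with ACBI-1 in MOLT-4. Its fold changes of -0.06 ± 0.06 and -0.05 ± 0.07 passed in neither line, although the treated libraries lay just below the controls in each. P4HA1, a collagen prolyl hydroxylase, gave -0.11 ± 0.09 and 0.10 ± 0.09. ANKRD37, a HIF target, gave 0.69 ± 0.33 (SE), adjusted p = 0.105 in DND-41 at 0.759 to 1.83 CPM, and passed there without ACBI-1 replicate 1 (0.87, adjusted p = 0.0406).

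CA9, a carbonic anhydrase that is a widely used hypoxia marker, and ADM, which encodes adrenomedullin, were too low to test. CA9 had 0 counts in all 4 DND-41 libraries, which allows up to 0.137 to 0.145 CPM (3 counts per library, counting error only). In MOLT-4 it read 0.315 and 0.845 CPM with DMSO and 0.265 and 0.165 CPM with ACBI-1. ADM read 0.0474 and 0 CPM with DMSO and 0 and 0 CPM with ACBI-1 in DND-41 and 0.0525 and 0.596 CPM with DMSO and 0.106 and 0.220 CPM with ACBI-1 in MOLT-4. The highest value of both genes was in MOLT-4 DMSO replicate 2, the library with 67.4 CPM over the stromal or epithelial genes, of which COL1A1 gave 55.4. Whether RNA of other cells adds to the CA9 and ADM values was not tested.

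The effect of ACBI-1 differed between the lines for 15 of the 34 members, by the interaction term in a fit over all 8 libraries. In 12 the effect was more positive in MOLT-4 and in 3 more negative, where 7.18% and 6.17% of all genes passed in these directions. Scaling by library size alone gave 2 and 3, beside 3.22% and 9.1% of all genes, and leaving out both MOLT-4 replicate 2 libraries gave 5 and 3, beside 2.76% and 3.16%. Without DND-41 DMSO replicate 2, and likewise without MOLT-4 ACBI-1 replicate 1, the more positive effects numbered 7. SLC2A3 (-2.15 ± 0.19 (SE), adjusted p = 2.52e-07) and BHLHE40 (-2.004 ± 0.21 (SE), adjusted p = 2.06e-06) fell further in MOLT-4. HK2 (0.65 ± 0.08 (SE), adjusted p = 2.53e-05) and HK1 (0.52 ± 0.10 (SE), adjusted p = 0.00133) had the more positive effect there, where HK1 fell by less and HK2 rose. These 4 passed under every alternative at the same threshold.

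The other 11 differences were smaller or less stable. SLC2A1 (0.45 ± 0.09), PKM (0.40 ± 0.09), PFKP (0.39 ± 0.08) and PFKL (0.34 ± 0.08), each with the lower fold change in DND-41, passed whichever single library was left out. They did not pass when scaled by library size alone, which moves the median difference of all genes to -0.12. SLC2A1 and PKM also did not pass without both MOLT-4 replicate 2 libraries (adjusted p = 0.0620 and 0.0651). VEGFA (0.62 ± 0.15) was lost without DND-41 DMSO replicate 2 or MOLT-4 ACBI-1 replicate 1 (adjusted p 0.0533 and 0.122). PDK1 (0.57 ± 0.15) was lost without DND-41 ACBI-1 replicate 1 or DMSO replicate 2, or MOLT-4 ACBI-1 replicate 1 or DMSO replicate 2 (adjusted p 0.0543 to 0.111). SLC16A1 (0.31 ± 0.08) was lost without DND-41 DMSO replicate 1, MOLT-4 ACBI-1 replicate 2 or MOLT-4 DMSO replicate 2 (adjusted p 0.0692 to 0.111). ENO2 (-0.35 ± 0.10), which fell further in MOLT-4, was lost without either DND-41 DMSO library, MOLT-4 ACBI-1 replicate 1 or MOLT-4 DMSO replicate 1 (adjusted p 0.0524 to 0.187). PFKFB3 (0.45 ± 0.12) was lost without DND-41 ACBI-1 replicate 1, either DND-41 DMSO library, MOLT-4 ACBI-1 replicate 1 or MOLT-4 DMSO replicate 1 (adjusted p 0.0549 to 0.0954). TPI1 (0.29 ± 0.08) was lost without any of 6 libraries, all but DND-41 ACBI-1 replicate 1 and MOLT-4 DMSO replicate 1 (adjusted p 0.0617 to 0.115). BNIP3L (0.34 ± 0.10) was lost without any of 7, all but DND-41 ACBI-1 replicate 1 (adjusted p 0.0522 to 0.16).

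Without the degrader, the lines differed in most members. Of the 34, 18 were higher in MOLT-4 with DMSO than in DND-41 with DMSO and 9 were lower, where 33.2% and 30.7% of all genes passed in these directions. Without both MOLT-4 replicate 2 libraries, 16 were higher and 9 lower, beside 29.2% and 24.7%. The DMSO libraries are those of the comparisons above, so these differences and the responses are not independent. ALDOC read 4.55 and 4.78 CPM in DND-41 and 204 and 185 CPM in MOLT-4, a difference of 5.38 ± 0.09 (SE), adjusted p = 1.63e-19. As a share of aldolase transcript per exon length, ALDOC was 0.547% ± 0.00254 in DND-41 and 17.6% ± 0.835 in MOLT-4. BNIP3 read 0.807 and 1.16 CPM in DND-41 and 13.1 and 13.8 CPM in MOLT-4 (3.77 ± 0.18 (SE), adjusted p = 1.4e-12). PFKFB2 (2.70 ± 0.17), ANKRD37 (2.14 ± 0.25), GPI (1.47 ± 0.06), BNIP3L (1.22 ± 0.07) and PFKM (1.18 ± 0.08) were also higher in MOLT-4 by more than 1 on the log2 scale.

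VEGFA, BHLHE40 and SLC16A3 were lower in MOLT-4 by more than 1. VEGFA read 62.8 and 71.8 CPM in DND-41 and 12.3 and 13.2 CPM in MOLT-4 (-2.40 ± 0.10 (SE), adjusted p = 9.09e-14). BHLHE40 differed by -1.86 ± 0.11 (SE), adjusted p = 1.57e-11 and SLC16A3 by -1.76 ± 0.15 (SE), adjusted p = 6.85e-09. PKM (-0.87 ± 0.06), SLC2A3 (-0.77 ± 0.10) and ENO2 (-0.73 ± 0.06) were lower by less. Of the 27 differences, 22 passed under every alternative at the same threshold. HK2 (0.20 ± 0.06) was lost without DND-41 DMSO replicate 1 or MOLT-4 DMSO replicate 2 (adjusted p 0.0729 and 0.0603), PFKFB4 (0.80 ± 0.20) without MOLT-4 DMSO replicate 2 (adjusted p = 0.0524), PFKFB3 (-0.25 ± 0.08) without DND-41 DMSO replicate 2 or MOLT-4 DMSO replicate 1 (adjusted p 0.0540 and 0.0720), and LDHB without DND-41 DMSO replicate 2 (adjusted p = 0.0574).

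**Figure D4:**
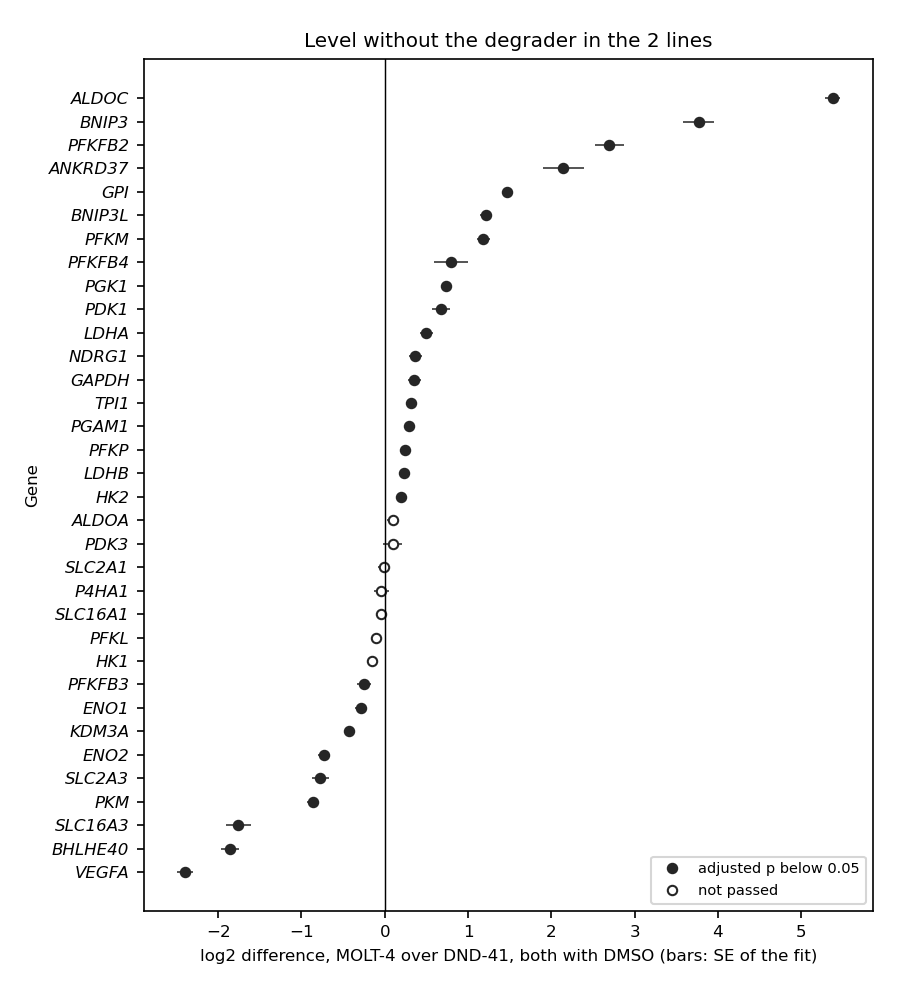
Log2 difference in level between MOLT-4 and DND-41, both with DMSO, for the 34 tested members in order of size, with the standard error of the fit. ALDOC and BNIP3 lie far to the right (5.38 and 3.77) and VEGFA farthest to the left (-2.40).

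Compared with one another per kilobase of exon, the members spanned several orders of magnitude. GAPDH was the highest in every group, from 1262 CPM per kilobase in DND-41 with ACBI-1 to 2066 in MOLT-4 with DMSO. ENO1 and ALDOA followed, at 370.2 and 290.04 CPM per kilobase in DND-41 with DMSO and at 304 and 310.1 in MOLT-4 with DMSO. PKM was the fourth in DND-41 (184 CPM per kilobase with DMSO) and the eighth in MOLT-4 (100.8). CA9 and ADM were the last or nearly so in each group.

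The genes that make and control HIF were measured beside the members, from a list of 11 of which 9 were tested. Of the 9, 3 rose and 2 fell in DND-41, beside 20% and 23.2% of all genes. In MOLT-4, 5 rose and 2 fell, beside 20.7% and 24.4% of all genes. The fallen share, 22.2% in each line, was thus near that of all genes. The MOLT-4 counts were 3 and 1 without ACBI-1 replicate 1 and 2 and 2 without both replicate 2 libraries. EPAS1, which encodes HIF-2 alpha, read 12.4 and 11.9 CPM with DMSO and 1.91 and 1.60 CPM with ACBI-1 in DND-41 and 10.1 and 9.19 CPM with DMSO and 3.92 and 3.08 CPM with ACBI-1 in MOLT-4, and fell in both (-2.78 ± 0.16 (SE), adjusted p = 6.03e-09 and -1.46 ± 0.15 (SE), adjusted p = 2.08e-07). EGLN3, a HIF prolyl hydroxylase that is itself a HIF target, fell in DND-41 (-1.28 ± 0.13 (SE), adjusted p = 1.53e-06) and rose in MOLT-4 (0.98 ± 0.29 (SE), adjusted p = 0.00927). The MOLT-4 call of EGLN3 was lost without ACBI-1 replicate 1 (0.98, adjusted p = 0.0562). CITED2, which competes with HIF for its coactivator, rose in both lines (0.58 ± 0.09 and 0.61 ± 0.07). ARNT rose in both (0.49 ± 0.06 and 0.40 ± 0.07), and HIF1A, the main alpha subunit, gave 0.04 ± 0.06 (SE), adjusted p = 0.612 in DND-41 and 0.13 ± 0.05 (SE), adjusted p = 0.0484 in MOLT-4. The HIF1A call in MOLT-4 was lost without ACBI-1 replicate 1, ACBI-1 replicate 2 or DMSO replicate 2 (adjusted p 0.0950 to 0.248). ARNT, HIF1A and VHL were chosen for naming after their values were seen. VHL gave -0.08 ± 0.06 and -0.03 ± 0.07 and passed in neither line.

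A further list held 21 hypoxia-inducible genes. Those tested in DND-41 numbered 13, of which 2 rose and 7 fell, beside 20% and 23.2% of all genes. Those tested in MOLT-4 numbered 18, of which 2 rose and 9 fell, beside 20.7% and 24.4% of all genes. The fallen share was thus above that of all genes in each line and the risen share below it, differences that were not tested. The risen genes numbered 4 in DND-41 without ACBI-1 replicate 1 and 1 in MOLT-4 without ACBI-1 replicate 1, and both replicate 2 libraries left out gave 1 risen and 7 fallen in MOLT-4. PLOD1, a collagen lysyl hydroxylase, fell in DND-41 (-1.91 ± 0.12) and in MOLT-4 (-1.15 ± 0.08). GBE1, the glycogen branching enzyme (-1.46 ± 0.08 and -0.69 ± 0.12), KDM4B, a histone demethylase (-1.39 ± 0.07 and -0.72 ± 0.06), and ZNF395 (-1.35 ± 0.18 and -0.41 ± 0.07) also fell in both. DDIT4 (REDD1), an inhibitor of mTORC1, read 20.7 and 20.4 CPM with DMSO and 36.4 and 32.1 CPM with ACBI-1 in DND-41 and 20.3 and 20.8 CPM with DMSO and 3.60 and 3.96 CPM with ACBI-1 in MOLT-4. The groups were separate in opposite order: DDIT4 rose in DND-41 (0.75 ± 0.08 (SE), adjusted p = 5.13e-06) and fell in MOLT-4 (-2.44 ± 0.12 (SE), adjusted p = 3.58e-12). In MOLT-4, RAB20 (-4.48 ± 0.76, below 1 CPM in every library) and STC2 (-0.86 ± 0.28) fell; the STC2 call was lost without either ACBI-1 library or without DMSO replicate 1 (adjusted p 0.0638 to 0.126). CA12 was high mainly in MOLT-4 DMSO replicate 2, at 3.43 CPM against 0.367 CPM in DMSO replicate 1. Its MOLT-4 fold change (-2.23 ± 0.70 (SE), adjusted p = 0.014) was 0.14 without that library (adjusted p = 0.918).

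The neighbouring branches of glucose use were counted in the same way, beside 20% risen and 23.2% fallen of all genes in DND-41 and 20.7% and 24.4% in MOLT-4. In the pentose phosphate pathway, 1 of 7 genes rose and 2 fell in DND-41, and 2 rose and 1 fell in MOLT-4, where 1 rose without ACBI-1 replicate 1 or without both replicate 2 libraries, and 0 with library size alone. PGD, which yields NADPH, fell in both lines (-0.82 ± 0.06 and -0.32 ± 0.05), and TKT, which links the pathway to glycolysis, fell in DND-41 (-0.53 ± 0.06) and gave -0.12 ± 0.06 (SE), adjusted p = 0.0845 in MOLT-4. Of 11 genes for the entry of pyruvate into mitochondria, 0 rose and 5 fell in DND-41, and 3 rose and 0 fell in MOLT-4. The fallen genes in DND-41 numbered 2 without DMSO replicate 1 and 3 without DMSO replicate 2, and 1 rose without ACBI-1 replicate 1. In MOLT-4, 1 rose and 1 fell without ACBI-1 replicate 1, 1 rose and 0 fell without both replicate 2 libraries, and 1 rose and 2 fell with library size alone.

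PDP1 and PDP2 are the phosphatases that oppose the PDK enzymes: PDP1 fell in DND-41 (-0.66 ± 0.10 (SE), adjusted p = 7.93e-05; -0.19 ± 0.08 (SE), adjusted p = 0.069 in MOLT-4, where it passed without ACBI-1 replicate 1, at -0.27, adjusted p = 0.0386) and PDP2 rose in MOLT-4 (0.61 ± 0.08 (SE), adjusted p = 2.19e-06; 0.08 ± 0.08 (SE), adjusted p = 0.403 in DND-41). Among other glycolytic genes and isoforms, 1 of 7 rose and 0 fell in DND-41 and 2 rose and 2 fell in MOLT-4. Leaving out DND-41 DMSO replicate 2 gave 2 risen in DND-41, and leaving out any 1 MOLT-4 library gave 1 to 2 risen and 1 to 2 fallen there. BPGM, which makes 2,3-bisphosphoglycerate, rose in both (0.76 ± 0.10 and 0.71 ± 0.09). Of 4 transcription factors of glycolytic genes, 0 rose and 2 fell in DND-41, and 1 rose and 2 fell in MOLT-4. Without DND-41 ACBI-1 replicate 1, 4 fell in DND-41. MYC, chosen after its values were seen, read 722 and 732 CPM with DMSO and 537 and 533 CPM with ACBI-1 in DND-41 and 789 and 801 CPM with DMSO and 954 and 980.4 CPM with ACBI-1 in MOLT-4, and fell in the former (-0.43 ± 0.06 (SE), adjusted p = 3.72e-05) and rose in the latter (0.28 ± 0.06 (SE), adjusted p = 0.00156). The MYC call in MOLT-4 was not met with library size alone (0.20, adjusted p = 0.111).

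In the authors' deposited table for DND-41, 18 of the 34 members had an adjusted p below 0.05, and all 34 log2 values had the sign given here. In the authors' deposited table for MOLT-4, 17 had an adjusted p below 0.05, and all 34 values had the opposite sign. The header of the latter table states no direction, and its signs match DMSO over ACBI-1. Every member below 0.05 in the authors' deposited tables also passed here.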

How the data were processed

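RNA-seq gene counts of 8 libraries (2 per line and treatment) were used. The counts are the authors' deposited whole-number tables, made with STAR 2.5.2a and featureCounts on hg19 per the submitters' processing notes. The sources used here do not give the strand setting or the treatment of multi-mapped reads. The authors' deposited comparison tables hold mean scores (baseMean, Wald statistic), log2 fold changes and p-values from DESeq2 1.12.4, per the same notes, and are quoted only where named.

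Groups came from the labels. Counts were tested with edgeR 4.0.16 (R 4.3.3): TMM scaling, filterByExpr with a minimum count of 10, glmQLFit and glmQLFTest, Benjamini-Hochberg adjustment and a threshold of 0.05. Each line was fitted alone (2 against 2). The interaction and the DMSO contrast used all 8 libraries. The SE is the fold change divided by the root of its F value. The functions were tested on simulated data. In those data 6.85% of the calls were false in DND-41, 10.6% in MOLT-4, 6.56% for the interaction and 10.6% for the DMSO contrast. Of log2 differences of 0.5 placed in those data, 66.7% were recovered in each line, 49.5% for the interaction and 52.0% for the DMSO contrast. Alternatives were scaling by library size or by DESeq2-type size factors, other filters, DESeq2 1.42.0, a replicate block, a threshold of 0.01, all 8 libraries in 1 fit and each library left out. Leaving out both MOLT-4 replicate 2 libraries was added after seeing the data. Depth was 19860759 to 20239888 counts per library, and 3 counts equal 0.137 to 0.165 CPM. Exon lengths were taken by gene identifier from GENCODE 29 and promoter windows from RefSeq. Per-library values are printed for members that passed with a log2 fold change of at least 0.5 in a line, that passed in opposite directions, that differed between the lines by at least 0.7, that were the highest of their role group, or that were too low to test. One gene of the further lists is not reported here. The members and all lists were chosen with earlier results of these data known.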

Additional observations from a re-analysis of the deposited data

Results flagged for a closer look

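For 15 members the effect of ACBI-1 differed between the lines by the interaction test (edgeR, adjusted p below 0.05; log2 difference, MOLT-4 minus DND-41). It was more positive in MOLT-4 for HK2 (0.65), VEGFA (0.62), PDK1 (0.57), HK1 (0.52), SLC2A1 (0.45), PFKFB3 (0.45), PKM (0.40), PFKP (0.39), PFKL (0.34), BNIP3L (0.34), SLC16A1 (0.31) and TPI1 (0.29). It was more negative for SLC2A3 (-2.15), BHLHE40 (-2.004) and ENO2 (-0.35). Of all genes, 7.18% passed in the more positive and 6.17% in the more negative direction. Only 4 of the 15 (HK2, HK1, SLC2A3 and BHLHE40) passed under every alternative at the same threshold.

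Of the genes named from the further lists, 12 differed as well. The effect was more positive in MOLT-4 for EGLN3 (2.27), EPAS1 (1.33), ZNF395 (0.96), GBE1 (0.79), PLOD1 (0.78), MYC (0.72), KDM4B (0.69), PDP2 (0.54), PGD (0.51), PDP1 (0.48) and TKT (0.42), and more negative for DDIT4 (-3.17). For DDIT4, EGLN3, MYC, HK2 and PDK1 the 2 lines moved in opposite directions. In a DESeq2 fit the calls of HK2 in DND-41, EGLN3 in MOLT-4 and PDK1 in both lines did not pass. The MYC call in MOLT-4 did not pass with library size alone. The difference for PDP1 did not pass without DND-41 DMSO replicate 2, MOLT-4 ACBI-1 replicate 1 or MOLT-4 DMSO replicate 2 (adjusted p 0.0529 to 0.0963), with both MOLT-4 replicate 2 libraries left out (0.0637), with library size alone (0.129) or in DESeq2 (0.0805). That for TKT did not pass with library size alone (adjusted p = 0.0687), and those for PLOD1 and PDP2 did not pass with both MOLT-4 replicate 2 libraries left out (adjusted p = 0.0710 and 0.0613).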

How the results depend on the processing

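Under the alternatives run, 105 of the 114 recomputed counts of members stayed within 1.5 times the reported count. The exceptions follow. Members risen in DND-41 were 2 without ACBI-1 replicate 1 (1 reported), and members fallen in DND-41 were 13 without DMSO replicate 2 (20 reported). Members risen in MOLT-4 were 4 with library size alone and 3 with both replicate 2 libraries left out (7 reported). Members with a more positive effect in MOLT-4 were 2 with library size alone, 7 without DND-41 DMSO replicate 2, 7 without MOLT-4 ACBI-1 replicate 1, 5 with both replicate 2 libraries left out and 7 at a threshold of 0.01 (12 reported). Leaving out each library in turn gave 1 to 2 risen and 13 to 20 fallen in DND-41, 5 to 7 and 11 to 15 in MOLT-4, 7 to 11 more positive and 2 to 3 more negative effects, and 16 to 20 members higher and 8 to 10 lower in MOLT-4 with DMSO. Where this leaves a group with 1 library, that library is assumed to vary like the other groups. The share of all genes that passed also changed with the libraries left out. Shifts in these counts, for the members and for the further lists, are thus not particular to the genes counted. In MOLT-4, CA12 ran from -3.54 without ACBI-1 replicate 2 to 0.14 without DMSO replicate 2 (-2.23 reported). The sum of the stromal or epithelial genes, mostly COL1A1, was highest in the MOLT-4 replicate 2 libraries. No called member changed its direction.

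Calls that passed under every alternative at the 0.05 threshold numbered 14 of 21 in DND-41, 13 of 23 in MOLT-4, 4 of 15 for the interaction and 22 of 27 for the DMSO contrast. The labels tie same-numbered libraries by number alone. Their deviations correlated at r = 0.039 in DND-41 and 0.22 in MOLT-4. With the replicate number as a block, 1 member rose and 21 fell in DND-41, beside 23.5% and 25.5% of all genes. In MOLT-4, 7 rose and 16 fell, beside 22.6% and 26%. For the interaction, 12 effects were more positive and 3 more negative, beside 9.02% and 7.62%. With DMSO, 18 members were higher and 10 lower in MOLT-4, beside 34.2% and 31.9%. The block added NDRG1 in DND-41 (-0.21, adjusted p = 0.0312) and HK1 in the DMSO contrast (-0.15, adjusted p = 0.0316) and ended no call.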
